A study of Mus musculus with 4 samples.

Results

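The 654 regions of open chromatin with the most reads away from protein-coding promoters were described in dental mesenchymal cells of the incisor, taken from wild-type C57BL/6 mice at 4 weeks of age. ATAC-seq reads accessibility from the places where a transposase could insert sequencing adapters into the DNA. A region belonged to the set, called the strong distal regions here, if it held 100 to 1000 reads and its midpoint lay more than 1 kb from every protein-coding transcription start site (TSS) in the GENCODE vM21 basic annotation of mm10. Of 121574 regions in all, 97134 were distal by this distance, and the 26471 distal regions of 10 to 30 reads served as the comparison. The strong distal regions were 0.673% of the distal regions and held 9.10% of their reads. The labels gave 1 group, with no treatment and no engineered allele. Its 4 lanes shared 1 name in the deposited values, so 1 library was described, with no replicates and no contrast between conditions. Read counts chose the regions and are given as a description only. The distance to protein-coding TSSs was also part of the choice, for strong and comparison regions alike. Sequence and all other annotation and position were not used to choose them. Shares are followed by exact (Clopper-Pearson) 95% binomial intervals and single read counts, where an interval is given, by exact 95% Poisson ones. Both cover counting error only: reads without molecular identifiers are not independent molecules. The labels do not say how pure the cells were, and in a bulk sample a change in the number of open cells and in the openness per cell cannot be told apart.

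Open chromatin away from coding promoters is of several kinds. Enhancers are short elements at which sequence-specific factors bind and act on genes over a distance. Insulators and loop anchors are held by CTCF, which recognises a long motif. Genes for tRNAs and other small RNAs are transcribed by RNA polymerase III or from small promoters of their own, many long noncoding RNAs start at promoters much like those of coding genes, and CpG islands stay free of DNA methylation and open in most cell types. In dental mesenchyme, which gives rise to the odontoblasts that make dentin and to the dental pulp, distal elements bound by homeobox, RUNX and AP-1 factors are part of the regulation of tooth and bone genes.

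Sequences of 9 strong distal regions show the kinds described below. They were read from GRCm38.p6 (mm10) and are written 5′ to 3′. The first shows a tRNA gene in capitals with 40 bases on either side: the tRNA-Val gene n-TVtac1 near Olfr1423 (chr19:12011891-12012043, plus strand).
Olfr1423 n-TVtac1: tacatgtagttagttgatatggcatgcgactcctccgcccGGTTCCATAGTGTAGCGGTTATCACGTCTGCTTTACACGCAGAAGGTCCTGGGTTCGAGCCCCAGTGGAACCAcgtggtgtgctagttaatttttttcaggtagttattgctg

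The next pair, also on the plus strand like all that follow, shows the central 300 bases of regions at long noncoding RNA starts. The region at 4932412D23Rik (chr16:42875522-42875821) has the most reads of those not resembling mitochondrial DNA, and its NFY motif (CCAATCA) is in capitals. In the region at Gm20732 (chr15:68363216-68363515) the capitals mark the CRE (TGACGTCA), the E-box CACGTG and the longer NRF1 motif.
4932412D23Rik: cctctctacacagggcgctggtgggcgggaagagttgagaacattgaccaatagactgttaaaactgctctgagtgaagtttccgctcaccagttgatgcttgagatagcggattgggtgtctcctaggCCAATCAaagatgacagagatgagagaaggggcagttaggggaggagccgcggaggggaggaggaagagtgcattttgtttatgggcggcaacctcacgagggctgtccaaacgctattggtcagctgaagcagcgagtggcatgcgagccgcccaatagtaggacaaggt
Gm20732: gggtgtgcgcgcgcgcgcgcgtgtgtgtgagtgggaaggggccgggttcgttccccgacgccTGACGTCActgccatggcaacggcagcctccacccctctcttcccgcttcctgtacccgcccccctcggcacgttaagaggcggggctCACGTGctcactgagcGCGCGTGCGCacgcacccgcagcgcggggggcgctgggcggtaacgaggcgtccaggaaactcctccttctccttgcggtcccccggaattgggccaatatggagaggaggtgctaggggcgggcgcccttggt

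Regions that were rich in CpG but lay at no annotated start are shown by 3 examples. Near Zfp395 (chr14:65343654-65343953) the capitals mark both GC boxes (GGGGCGGGG) and an E-box CACGTG. Near Fos (chr12:85455216-85455515) they mark an E-box CACGTG and an NFY motif on the minus strand. Near Chd2 (chr7:73618322-73618621) they mark the CTCF motif, which only 8 of the 654 windows held.
Zfp395: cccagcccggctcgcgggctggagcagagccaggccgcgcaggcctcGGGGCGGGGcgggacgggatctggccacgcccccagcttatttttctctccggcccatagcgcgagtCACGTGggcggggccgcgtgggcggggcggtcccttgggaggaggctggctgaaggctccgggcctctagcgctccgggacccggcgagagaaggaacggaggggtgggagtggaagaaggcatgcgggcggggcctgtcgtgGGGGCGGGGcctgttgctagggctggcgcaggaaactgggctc
Fos: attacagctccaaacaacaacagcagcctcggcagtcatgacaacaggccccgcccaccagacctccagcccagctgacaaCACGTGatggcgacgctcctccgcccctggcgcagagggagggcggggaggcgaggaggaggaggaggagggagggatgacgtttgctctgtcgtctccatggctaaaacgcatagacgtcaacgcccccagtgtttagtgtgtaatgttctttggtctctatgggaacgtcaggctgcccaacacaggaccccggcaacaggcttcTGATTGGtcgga
Chd2: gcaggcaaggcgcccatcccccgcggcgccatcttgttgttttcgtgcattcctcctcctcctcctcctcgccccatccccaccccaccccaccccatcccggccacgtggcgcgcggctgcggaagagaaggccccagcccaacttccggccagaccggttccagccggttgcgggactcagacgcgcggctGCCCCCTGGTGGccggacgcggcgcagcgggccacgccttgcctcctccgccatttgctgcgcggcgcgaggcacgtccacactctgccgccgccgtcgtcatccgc

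The last 3 are poor in CpG and lie far from any start. In the intron of Tcf7l1 (chr6:72711632-72711931) the capitals mark E-boxes (CAGCTG, or CATCTG read on the minus strand), at 36.0 kb from Dlx4 (chr11:95182095-95182394) the homeobox core TAATTA, and at 48.1 kb from Col1a2 (chr6:4457204-4457503) an AP-1 motif (TGACTCA) and a RUNX motif (TGTGGTT, read on the minus strand).
Tcf7l1: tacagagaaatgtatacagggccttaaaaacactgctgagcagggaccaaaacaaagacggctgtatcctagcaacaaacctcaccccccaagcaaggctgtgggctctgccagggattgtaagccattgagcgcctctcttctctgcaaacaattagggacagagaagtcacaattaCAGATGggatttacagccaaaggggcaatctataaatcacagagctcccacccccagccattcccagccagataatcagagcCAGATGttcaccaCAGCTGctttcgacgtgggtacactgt
Dlx4: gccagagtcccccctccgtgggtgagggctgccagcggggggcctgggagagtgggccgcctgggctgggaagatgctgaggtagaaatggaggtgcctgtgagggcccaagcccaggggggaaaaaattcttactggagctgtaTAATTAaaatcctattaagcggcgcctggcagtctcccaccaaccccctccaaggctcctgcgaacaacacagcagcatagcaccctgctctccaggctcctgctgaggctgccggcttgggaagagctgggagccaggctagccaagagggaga
Col1a2: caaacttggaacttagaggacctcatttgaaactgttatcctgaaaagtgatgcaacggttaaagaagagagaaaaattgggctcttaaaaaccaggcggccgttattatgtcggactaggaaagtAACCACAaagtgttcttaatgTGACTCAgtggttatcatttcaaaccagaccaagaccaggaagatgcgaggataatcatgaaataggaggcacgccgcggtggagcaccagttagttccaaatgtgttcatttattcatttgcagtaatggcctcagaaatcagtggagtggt

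Some of the strongest regions could not be placed with certainty. In 6 of them over 50% of the sequence resembled mitochondrial DNA (mitochondrial-like): they lay in introns of Notch4 (885 reads), Nedd4l (748 reads), Esrrg (733 reads), Ccdc162 (393 reads) and Stxbp4 (254 reads), and 76.2 kb from the TSS of Fhl4 (493 reads). They held 3506 reads, were narrow, with a median of 243 bp, and matched the mitochondrial genome at 76.0% to 92.2% identity. Above the upper limit of 1000 reads the same kind dominated, with 11 of 12 distal regions. A further 19 strong distal regions had at least 1 near-identical copy elsewhere in the genome (95% identity over 80% of the central 300 bp). The regions over the processed pseudogenes Gm12895 and Gm12896 had 465 and 457 reads, and their 224 bases differed at 0 positions. Nearest to Pls3 on chromosome X, 4 regions in noncoding genes with 2 to 12 copies, each region itself included, had 201, 153, 112 and 101 reads. Together the 25 mitochondrial-like and multicopy regions held 6.90% of the reads; shares without them are given with the effects of processing.

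The strong distal regions had a median of 128 reads, with quartiles of 111 and 166. They were also wide: the median width was 753.5 bp, against 325 bp in the comparison regions. The median density was 18.4 reads per 100 bp, against 4.80 per 100 bp, a value that the choice on reads also sets. Within the set, reads and width had a Spearman rho of 0.293 over the 654 regions, which share 1 library. Only 20 regions were narrower than 350 bp, and 5 of them were mitochondrial-like. Other narrow regions with high counts were at 302.2 kb from Thrb (319 bp, 418 reads), at 26.1 kb from Gm11084 (185 bp, 222 reads) and in an intron of Myo3b (190 bp, 204 reads), each with 1 copy in the assembly. In 53.2% of the strong distal regions (49.3% to 57.1%) a neighbouring region of the list was directly adjacent, against 29.4% of comparison regions.

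**Figure D1:**
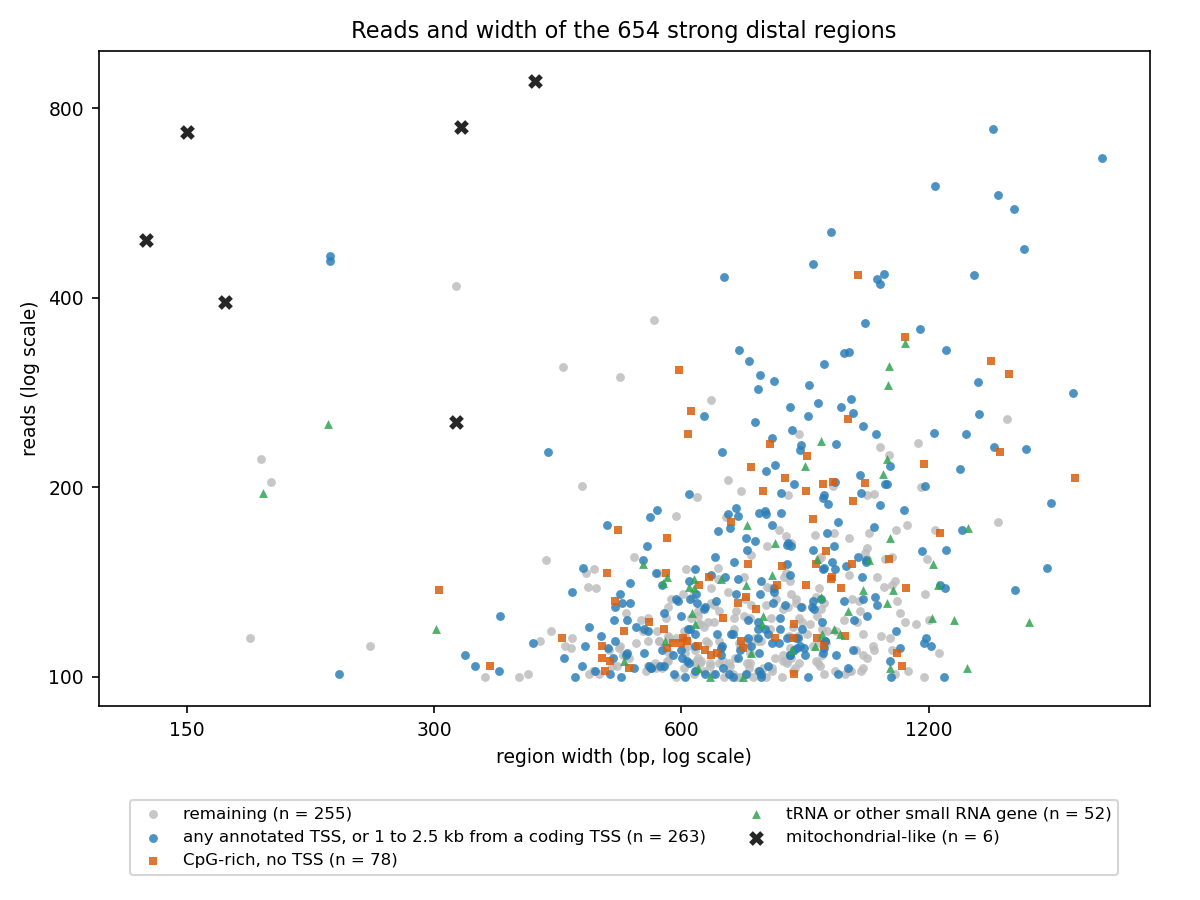
Reads of each strong distal region (y axis, log scale) against its width in bp (x axis, log scale), with 1 point a region and the class as colour and shape. The 6 mitochondrial-like regions (crosses) lie at the narrow left, while regions at annotated starts and CpG-rich regions make up most points above 400 reads at widths over 600 bp.

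Each region was put in the first class it met of 9, and the strong distal regions were spread over all of them. Annotated starts that the rule did not count were frequent: 101 regions (15.4%, 12.8% to 18.4%) lay within 1 kb of a long noncoding RNA TSS, against 3.12% of comparison regions (2.91% to 3.34%). Another 123 (18.8%, 15.9% to 22.0%) lay within 1 kb of some other TSS of the comprehensive GENCODE set or RefSeq, against 7.14% (6.83% to 7.46%), and 9 (1.38%) at a pseudogene TSS, against 0.631%. Genes for tRNAs accounted for 36 regions (5.50%) and other small RNA genes for 16 (2.45%), against 0.102% and 0.450%. Within 1 to 2.5 kb of a coding TSS lay 30 (4.59%), against 2.98%, and 78 (11.9%, 9.54% to 14.7%) were CpG-rich with no annotated TSS, against 1.91% (1.75% to 2.08%). The remaining class, with none of these features, held 255 strong distal regions (39.0%, 35.2% to 42.8%), against 83.7% of comparison regions (83.2% to 84.1%).

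**Figure D2:**
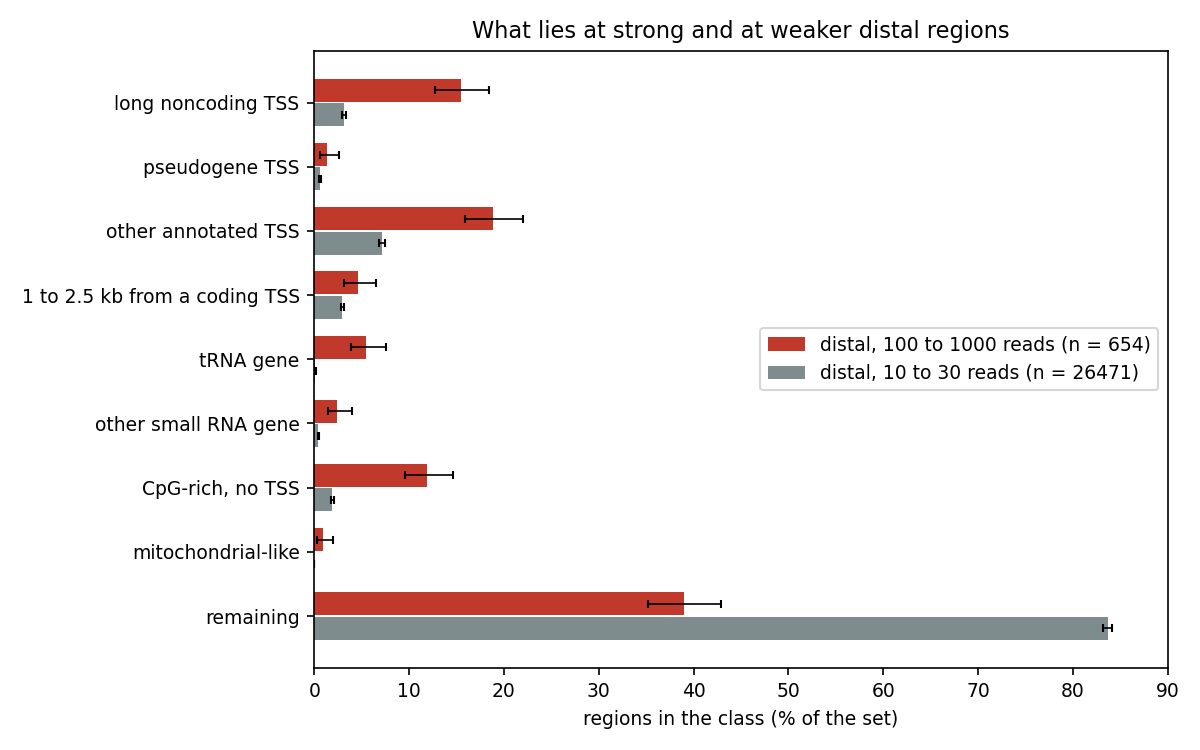
Share of regions in each of the 9 classes (x axis, percent of the set; bars from 0) for the 654 strong distal regions (red, upper bar) and the 26471 distal regions of 10 to 30 reads (grey, lower bar), with exact 95% binomial intervals. The remaining class falls to 39.0% in the strong regions, against 83.7%, while each of the other 8 classes holds a larger share of the strong regions.

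The shift went on within the set. Among the 446 strong distal regions of 100 to 149 reads, 46.9% were in the remaining class, against 27.4% of the 146 regions of 150 to 249 reads and 9.68% of the 62 regions of 250 reads or more. Over the same 3 steps the share at a long noncoding TSS was 13.5%, 16.4% and 27.4%. Over the whole range of distal regions, any annotated TSS lay within 1 kb of 10.4% of regions of 0 to 9 reads, 11.4% at 10 to 30 reads, 16.7% at 31 to 99 reads and 40.7% (36.9% to 44.5%) of the strong distal regions.

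Among the long noncoding starts, 44 belonged to lincRNAs, 22 to processed transcripts, 19 to antisense transcripts, 15 to genes annotated as TEC (to be experimentally tested) and 1 to a transcript overlapping a gene's end. The region with 740 reads (687.6 to 795.3) lay 68 bp from the start of the lincRNA 4932412D23Rik. In RefSeq an mRNA of Zbtb20, which encodes a zinc finger repressor, starts 17 bp from the same midpoint. Gm7461 had 582 reads, a noncoding transcript of Zswim6 478 reads, Gm26901 452 reads, Gm5112 436 reads, Gm20732 431 reads, 1810059C17Rik in an intron of Mllt10 428 reads and 1700028E10Rik 420 reads. Snhg8, a host of small nucleolar RNAs, had 356 reads. Each of these regions was at or above 600 bp wide and none had a near-identical copy.

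Many of the other starts belonged to coding genes. By the nearest TSS, 121 strong distal regions (18.5%, 15.6% to 21.7%) lay within 1 kb of an mRNA start in RefSeq or of a start assigned to a coding gene in comprehensive GENCODE, some of them of noncoding transcripts of that gene, against 5.11% of comparison regions (4.85% to 5.38%). The region with 666 reads in B430305J03Rik lay 490 bp from a RefSeq start of Rap2b, a small GTPase. Crlf2, which encodes a subunit of the TSLP receptor, had 601 reads at an intronic start 972 bp away. Slc27a1, a fatty acid transporter, had 434 reads at a start 53 bp away. Zbtb18 had 330 reads and Zfp869 268 reads, each with a start at most 437 bp away. In exons, the regions with the most reads after B430305J03Rik were those of Spaca6 and Angptl6, with 259 reads each. The 2 regions at Hes1, the main effector of Notch signalling, had 209 and 202 reads.

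The shoulders of coding promoters, 1 to 2.5 kb away, held 2 of the 20 strongest regions. An intronic region of Peg3, an imprinted gene expressed from the paternal copy, had 553 reads and contained 3 CpG in its central 300 bp. Impact, also imprinted, had 294 reads in an intron 1.9 kb from the basic TSS and 458 bp from another start. Clec11a, which encodes a secreted factor that promotes bone formation, had 509 reads in an intron 1.7 kb from its TSS. Efna5 had 364 reads and Nr4a3 327 reads.

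Genes for tRNAs became much more frequent with reads. Of 403 annotated nuclear tRNA genes, 55 lay in 36 strong distal regions, and all 20 isotypes of the annotation were among them. The share of distal regions with a tRNA gene was 0.0221% at 0 to 9 reads, 0.102% at 10 to 30, 0.563% at 31 to 99 and 5.50% (3.88% to 7.54%) in the strong distal regions. Counted the other way, of 114 distal regions with a tRNA gene 36 were strong, 37 had 31 to 99 reads, 27 had 10 to 30 and 14 had fewer. Examples, not a full ranking, are the regions near Zfp692 with 311 reads (tRNA-Glu and tRNA-Leu genes) and near Olfr1423 with 291 reads (tRNA-Arg and 2 tRNA-Val genes). The regions near Olfr750, Rnase4, Gpd2 and Stx11 had 237, 222, 216 and 210 reads. A single tRNA gene lay in 21 of the regions and 2 or 3 genes in 15.

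The GC content of the tRNA regions was moderate, with a median of 51.8%, but the observed over expected CpG ratio had a median of 0.854, against 0.787 in the CpG-rich class without a TSS. The same 2 medians were 54.3% and 0.708 at other small RNA genes, and 45.3% and 0.689 in comparison regions with a tRNA gene. The centre of a tRNA gene lay a median of 210 bp and at most 569 bp from the midpoint of its region. All 55 genes were followed within 40 bases by a run of TTTT, the stop signal of RNA polymerase III, against 302 of 348 other annotated tRNA genes (86.8%). The core letters of the internal B box (GGTTCGA, both strands) were present in 33 of the 55 genes (60.0%) and in 210 of the other 348 (60.3%); they were found in 17 of the 654 windows of 300 bp in strong distal regions and in 0.363% of comparison windows. An NRF1 motif or an ETS motif with a CpG (CCGGAAG) was found in 19.4% of the 36 windows each (8.19% to 36.0%), against 0.253% and 1.84% of the comparison windows. The shares of promoter regions of 100 to 1000 reads, 11.8% and 15.9%, lay inside that interval. So did those of the CpG-rich class without a TSS, 8.97% each. The region 259.0 kb from Atp10a, with a tRNA-Glu gene, had 174 reads and an NRF1 motif.

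Among the other small RNA genes were 3 U3 small nucleolar RNA genes in a row beside Tex14 (Rnu3b1, Rnu3b3 and Rnu3b4, with 137, 119 and 117 reads) and a small nuclear RNA gene next to them with 100 reads. The U3 regions had 4 near-identical copies each in the assembly, the region itself included. A pair of snRNA genes beside Arhgap5 had 137 and 126 reads, the 7SL gene Rn7s2 had 144 reads and Mir210, a microRNA known from the response to low oxygen, had 143 reads 407 bp from its start. The 5.8S rRNA gene n-R5-8s1 had 252 reads in 223 bp.

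In base composition the strong distal regions stood between weaker distal regions and promoters. The median GC content of the central 300 bp was 58.0%, against 48.3% in comparison regions, and promoter regions of the same 100 to 1000 reads had 68.3%. A window counted as CpG-rich at a GC content of at least 50% and an observed over expected CpG ratio of at least 0.6. By this measure 272 strong distal regions (41.6%, 37.8% to 45.5%) were CpG-rich, against 3.95% of comparison regions (3.72% to 4.19%), and 91.5% of the 3860 promoter regions of 100 to 1000 reads. The steps between were 2.62% of distal regions at 0 to 9 reads and 11.7% at 31 to 99 reads. At long noncoding starts 73 of 101 were CpG-rich and at other annotated starts 66 of 123.

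**Figure D3:**
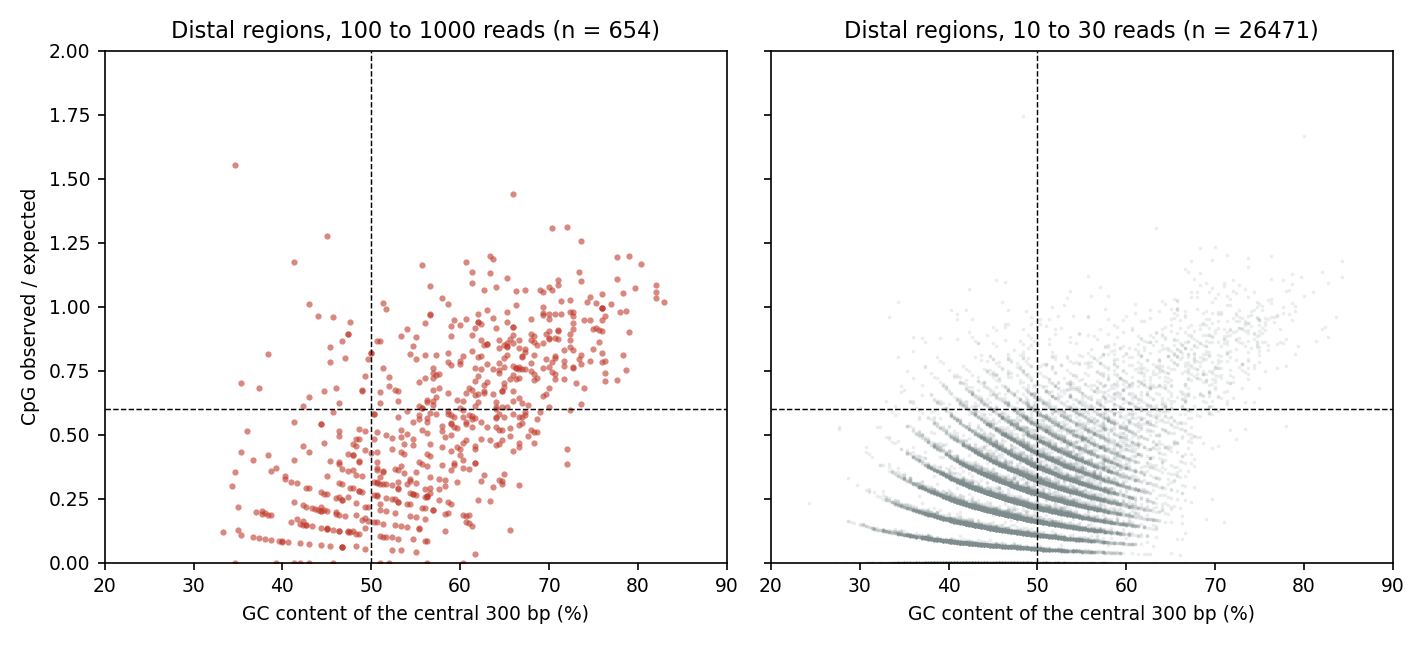
CpG observed over expected ratio (y axis) against GC content in percent (x axis) of the central 300 bp, with 1 point a region, for the strong distal regions (left) and the comparison regions (right); dashed lines mark 50% GC and a ratio of 0.6. The upper right field holds 41.6% of the strong distal regions, against 3.95% of the comparison regions.

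The 78 CpG-rich regions without any annotated start had the composition of promoters, with a median GC content of 66.5% and 27 CpG in 300 bp. The strongest lay 14.9 kb from Zfp395, with 434 reads, and 76.7 kb from Chd2, which encodes a chromatin remodeller, with 346 reads. Others lay in an intron of Maml3, a Notch coactivator, with 317 reads, and 22.5 kb from Ccne1, the cyclin E1 gene, with 307 reads. Hand2, a transcription factor of the jaw and limb mesenchyme, had 218 reads 7.7 kb from its TSS. The Klrb1 gene cluster on chromosome 6 held 6 strong distal regions, with 302, 264, 243, 243, 225 and 170 reads, of which 3 were of this class. Klrb1 genes encode receptors of natural killer cells. Of the leukocyte list of 16 genes, which does not hold them, 0 were nearest to a strong distal region. The exact interval reached 0.562%, against 0.0869% of comparison regions, and a part of leukocytes in these values was not tested.

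The 255 remaining regions are those most like enhancers in position. They lay a median of 48.1 kb from the nearest coding TSS, against 45.1 kb for the remaining comparison regions; 36.1% of them were intronic, against 45.7%, and the median GC content was 50.7%, against 47.7%. Over all classes, by contrast, the distance was 21.9 kb in strong distal regions and 38.8 kb in comparison regions, and 32.9% (29.3% to 36.6%) and 46.1% (45.5% to 46.7%) were intronic. Their reads ended at 418, and 75% of them had at most 138. Apart from the narrow region near Thrb, the highest counts were 3.2 kb from Ifna13 with 369 reads, in an intron of Ism1 with 310 reads and in an intron of Kcnma1 with 299 reads. A region in Snx29 with 275 reads had 8 near-identical copies in the assembly, itself included.

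Enhancers with tested activity were found among the strong distal regions more often than among the comparison regions. The VISTA collection, as annotated by RefSeq, lists mouse elements that drove a reporter in transgenic embryos. Of the strong distal regions 15 overlapped such an enhancer (2.29%, 1.29% to 3.75%), against 0.578% of comparison regions (0.490% to 0.677%). Distal regions of 31 to 99 reads had 1.54% (1.25% to 1.86%), a share inside the interval of the strong distal regions. A wider region can meet more elements. By the midpoint alone, 15 strong distal regions lay inside an enhancer, against 0.563% of comparison regions (0.476% to 0.661%). In the remaining class the shares by overlap were 4.71% (2.45% to 8.08%) and 0.569% (0.474% to 0.677%). Of the 15, 12 overlapped elements active in limb, branchial arch or facial mesenchyme, against 78 of the 153 comparison regions that overlapped an enhancer. Put by enhancer, 12 of 248 elements active in these tissues held a strong distal region (4.84%, 2.52% to 8.30%), against 3 of 372 elements active only elsewhere (0.806%, 0.167% to 2.34%). Limb elements made up most of these, with 10 of 174 (5.75%, 2.79% to 10.3%). Branchial arch elements had 4 of 98 (4.08%, 1.12% to 10.1%) and facial mesenchyme elements 2 of 70 (2.86%, 0.348% to 9.94%). Among other tissues the share was 1.20% in forebrain, 1.26% in heart, 2.86% in hindbrain, 4.76% in eye and 6.00% in nose. An element can be active in several tissues. The branchial arches and facial mesenchyme are the embryonic source of tooth mesenchyme. The VISTA elements were chosen by their authors and are not a random sample of enhancers.

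An intronic region of Tcf7l1, a repressor of Wnt targets, had 171 reads (146.3 to 198.6) and overlapped an element active in limb and branchial arch. A region 83.1 kb from Spry2, an inhibitor of FGF signalling, had 169 reads (144.5 to 196.5) and overlapped an element active in branchial arch. Regions of 144 reads at 178.3 kb from Efcab1 and of 101 reads at 12.5 kb from Scarf2 overlapped elements active in both. Elements active in facial mesenchyme held a region of 105 reads in G430095P16Rik and another of 102 reads at 98.0 kb from Edn3, a ligand that guides neural crest derivatives. Limb elements held 193 reads in Atoh8 and 171 and 118 reads at 173.2 and 233.7 kb from Sorl1. The region with 257 reads at 18.5 kb from Fos overlapped an element active in heart; it was also CpG-rich.

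Genes of tooth, bone and signalling had a number of strong distal regions nearest to them. The nearest coding TSS is only a label of position and need not name the gene that a region acts on. Of the dental mesenchyme factors, 6 of 35 genes had 8 strong distal regions (1.22%, 0.530% to 2.40%), against 0.578% of comparison regions (0.490% to 0.677%). The comparison share lay inside the interval of the strong distal regions. The 8 regions were nearest to Hand2 with 218 and 101 reads, Dlx4 with 138, Tfap2a with 135, Dlx1 with 109, Msx2 with 103 and 102, and Osr2 with 103. Msx2 and the Dlx genes encode homeobox factors of the jaw and tooth. Of the odontoblast and osteoblast list, 5 of 22 genes had 6 regions (0.917%), against 0.302%. Cdh11, the cadherin of osteoblasts, had 195 reads at 198.1 kb and 131 reads at the start of Gm32531. Sp7, the osteoblast factor osterix, had 127 reads at 10.2 kb, while its own promoter had 27. Col1a2, which encodes part of type I collagen, had 121 reads at 48.1 kb, against 115 reads at its promoter. Klf4 had 113 reads and Nes 103.

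In the BMP and TGF-beta list, 7 of 31 genes had 8 regions (1.22%, 0.530% to 2.40%), against 0.744% of comparison regions. Bambi, a decoy receptor of the pathway, had 232 reads (203.1 to 263.9) at 59.0 kb. The inhibitory Smad7 and Smad6 had 138 and 129 reads at 24.6 and 94.3 kb, and Id3 and Id1, direct targets of BMP signalling, had 131, 112 and 100 reads between them. The ligand Bmp4 had 112 reads in an intron, 38 bp from the antisense start of Gm15222. In the IGF list, Igf1r, the receptor, had 282 reads 1.1 kb from its TSS and 174 reads in an intron at 109.9 kb. Igfbp7 had 154 reads at 52.3 kb. In the FGF list, Spry2 was followed by the receptor genes Fgfr2 with 154 reads and Fgfr1 with 112. Ptch1, the hedgehog receptor, had 149 reads 2.3 kb away at the start of A930032L01Rik. The share of the IGF list was 0.612% (0.167% to 1.56%), against 0.287% of comparison regions. That of the FGF list was 0.459% (0.0947% to 1.33%), against 0.340%, and that of the hedgehog list 0.153% (0.00387% to 0.849%), against 0.340%. As for the dental mesenchyme list, the comparison share lay inside the interval for the BMP and TGF-beta, IGF, FGF and hedgehog lists. In the Wnt list, 2 of 30 genes had a region, Tcf7l1 and Ctnnb1 (109 reads). The Wnt share was 0.306% (0.0371% to 1.10%), against 0.461%, which also lay inside the interval. Outside that list, the ligand gene Wnt7b was nearest to 2 regions with 404 reads in all.

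The early response list had the most regions over all classes. Here 11 of 21 genes, among them Fos, Jun, Myc, Nr4a1 and Egr3, had 13 strong distal regions (1.99%, 1.06% to 3.38%), against 95 comparison regions (0.359%, 0.290% to 0.439%). Of these, 4 were in the remaining class, at Klf6 and Myc (1.57%, 0.429% to 3.97%), against 0.325% of remaining comparison regions. The dental mesenchyme and endothelial lists also had 4 each in that class, against 0.564% and 0.190%. For the dental mesenchyme list the comparison value lay inside the interval (0.429% to 3.97%). The other early response regions lay 1 to 2.5 kb from a coding TSS, at annotated starts or in the CpG-rich class. Nr4a3, an early response nuclear receptor, had 327 reads, Jun 150 reads at 109.2 kb, and Myc 133, 114 and 111 reads at 149.9, 478.1 and 475.5 kb. These genes are also known to be induced when cells are dissociated, and the part of sample handling in these values was not tested. Among markers of other cells, endothelial genes had 5 regions (Cdh5 with 127, 122 and 102 reads at 78.5 to 287.5 kb, Flt1 with 115 and Esam with 113), and dental epithelium genes had 3 (Mmp20, Cldn10 and Krt8, 104 to 142 reads). The endothelial share was 0.765% (0.249% to 1.78%), against 0.178% of comparison regions, and the dental epithelium share 0.459% (0.0947% to 1.33%), against 0.178%; their part in the values of the tooth lists was not tested. Leukocyte, skeletal muscle, Schwann cell, neuron and erythroid lists had 0 of 16, 11, 11, 10 and 10 genes, which allows shares of up to 0.562% by the exact interval, against 0.0113% to 0.0869% of comparison regions. The mesenchymal matrix list had 3 regions, at Dcn (155 reads), Vcan and Mmp14 (102 reads each), or 0.459%, against 0.487% of comparison regions.

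**Figure D4:**
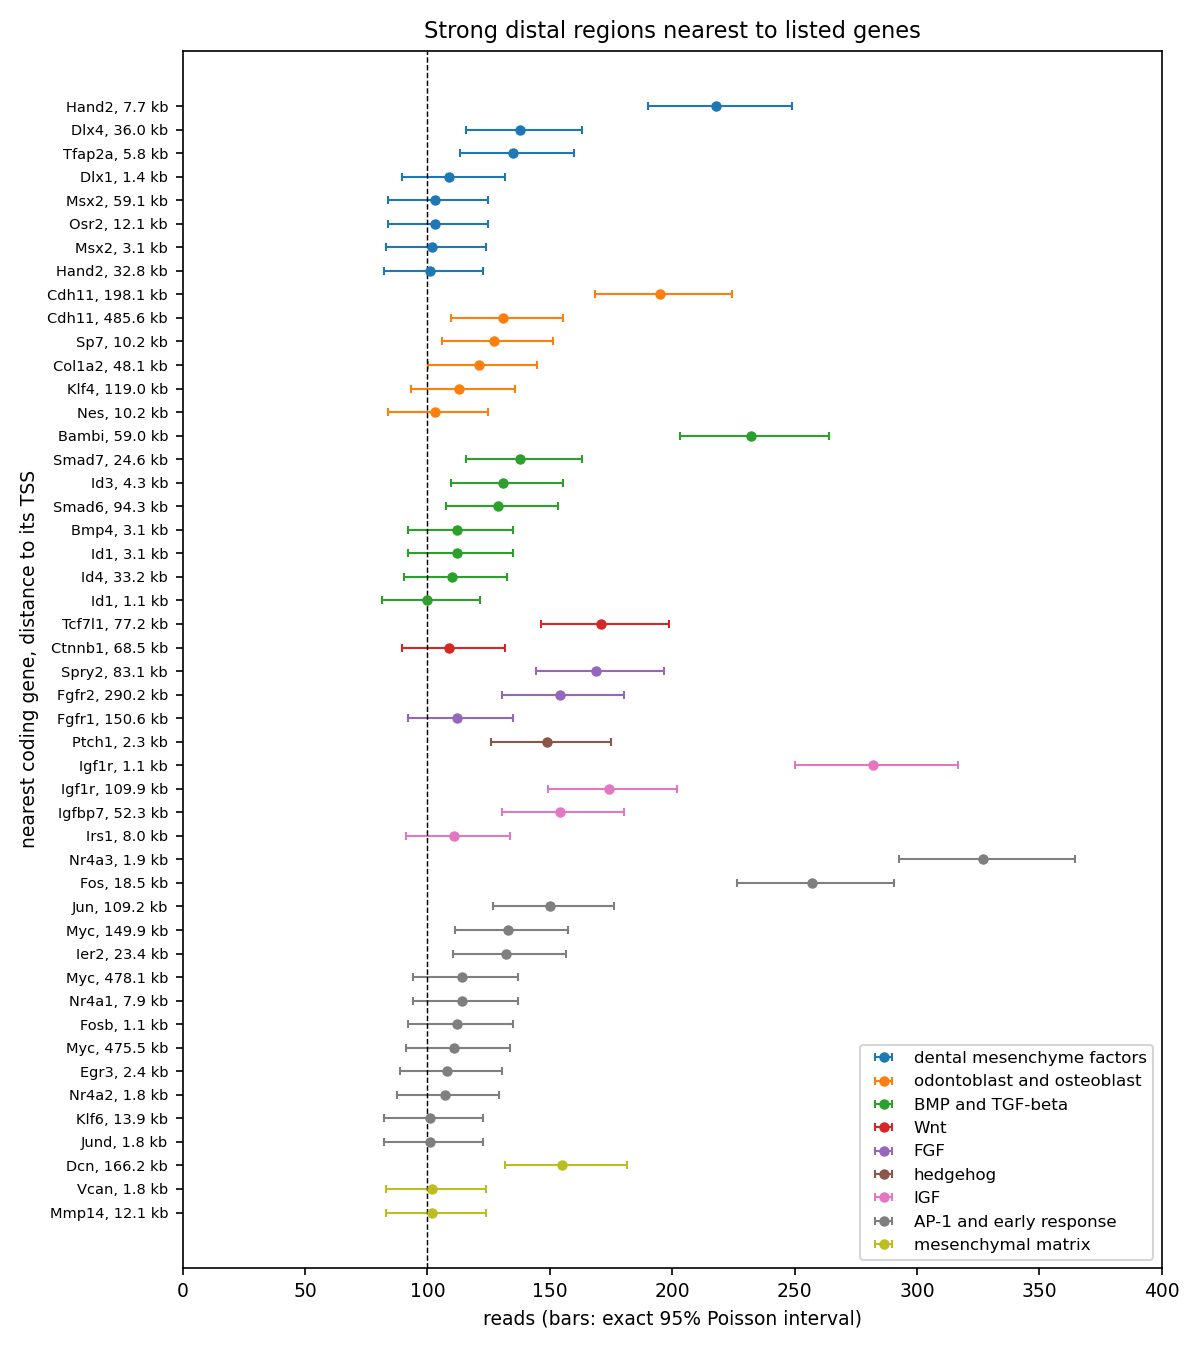
Reads (x axis) of the 48 strong distal regions nearest to genes of 9 lists, with 1 row a region, named by its gene and distance to the TSS in kb (y axis); bars are exact 95% Poisson intervals, colours are lists, and the dashed line is the lower limit of 100 reads that chose the regions. Nr4a3, Igf1r, Fos, Bambi and Hand2 lead with 327, 282, 257, 232 and 218 reads, and the intervals of many others reach below 100.

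Motifs were counted as exact matches on both strands in the central 300 bp of each region. Several motifs of promoters, but not all, were found more often. The GC box was in 94 strong distal regions (14.4%, 11.8% to 17.3%), against 1.79% of comparison regions (1.64% to 1.96%). The NFY motif (CCAATCA or CCAATGA) was in 13.3% (10.8% to 16.1%), against 6.17%. The NRF1 motif was in 5.35% (3.76% to 7.36%), against 0.253%, and the CRE in 2.29% (1.29% to 3.75%), against 0.272%. The ETS motif with a CpG was in 7.19%, against 1.84%, and the E-box CACGTG in 7.49%, against 4.13%. For the YY1 motif (5.35%, against 4.45%) and the KLF CACC box (2.91%, against 2.52%) the comparison value lay inside the interval. In the remaining class it lay inside the interval for NFY (7.45%, against 6.12%), CRE and CACGTG (6.27%, against 3.82%). There the GC box (5.88%, against 1.21%), NRF1 and ETS motifs stayed above it. At GC contents between 44% and 53%, CACGTG was in 5.49% (2.54% to 10.2%), against 4.11%. In promoter regions of 100 to 1000 reads the GC box was in 27.5% and the NRF1 motif in 11.8%, and in flanks of distal regions they were in 0.756% and 0.0926%.

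Some motifs of lineage and enhancer factors, among them homeobox, RUNX and AP-1, were found less often in the central 300 bp of the set. Over whole regions, which were wider, their shares were not lower. For other such motifs the comparison value lay inside the interval in the windows. These were the E-box CAGCTG (20.2%, against 21.2%), GATA (1.99%, against 3.02%), TCF/LEF (3.21%, against 4.70%), MEF2 and SRF. In the windows, the homeobox core TAATTA was in 72 of 654 windows (95% interval 8.71% to 13.7%), against 17.3% of comparison regions (16.9% to 17.8%), and the RUNX motif in 6.12% (4.41% to 8.24%), against 11.2% (10.8% to 11.5%). The AP-1 motif was in 3.82% (2.49% to 5.59%), against 7.19% (6.88% to 7.50%). Over whole regions the shares were no longer lower. AP-1 was in 10.7% (8.44% to 13.3%), against 8.53%, which lay inside that interval. RUNX was in 14.8%, against 12.7%, TEAD in 10.4%, against 7.73%, and homeobox in 19.9%, against 19.1%. Per kb of sequence there were 0.156 AP-1 matches, against 0.257, and 0.320 homeobox matches, against 0.631, which again was lower in the strong distal regions. At GC contents between 44% and 53% the homeobox core was in 36 of 164 windows (15.9% to 29.1%), against 16.5%. It was no longer lower there, and the comparison value lay inside the interval. Among the 255 remaining regions, homeobox stood at 19.6%, against 18.7% of remaining comparison regions, RUNX at 9.41%, against 11.8%, and AP-1 at 5.88%, against 7.49%, and each of these 3 comparison values lay inside the interval of the strong regions. The E-boxes CAGCTG and CATCTG, bound by basic helix-loop-helix factors, were in 58 and 66 of the 255 remaining regions, against 4669 and 5546 of 22149 remaining comparison regions. The homeobox share fell with width at each step in comparison regions, while in strong distal regions it moved in no single direction. In the remaining class it was in 0 of 6 strong regions under 350 bp, against 20.2% of comparison regions, and in 7 of 54 (13.0%, 5.37% to 24.9%) at 350 to 599 bp, against 17.6%. Between 600 and 899 bp it was in 35 of 136 remaining strong regions (25.7%, 18.6% to 33.9%), against 117 of 1152 remaining comparison regions (10.2%, 8.47% to 12.0%), and from 900 bp in 8 of 59 (13.6%, 6.04% to 24.98%), against 8.25%. Over distal regions by reads, the homeobox core was in 11.8% at 0 to 9 reads, 17.3% at 10 to 30, 20.3% at 31 to 99, and then in the 72 windows of the strong distal regions.

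**Figure D5:**
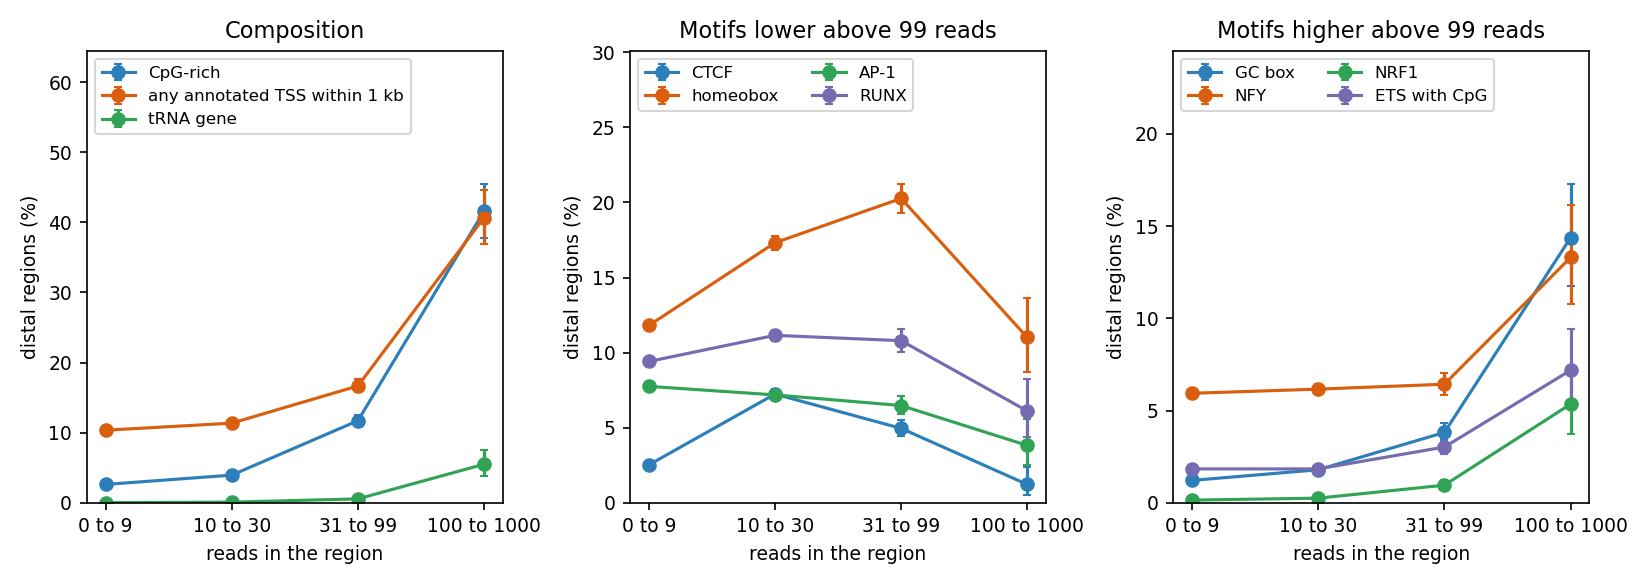
Share of distal regions (y axis, percent) by reads in the region (x axis, 4 steps) that have an annotated TSS, a CpG-rich centre or a tRNA gene (left), a CTCF, homeobox, AP-1 or RUNX motif in the central 300 bp (middle) and, in the same window, a GC box, NFY, NRF1 or ETS motif with CpG (right); bars are exact 95% binomial intervals. CTCF and homeobox motifs are most frequent at the steps of 10 to 30 and 31 to 99 reads, while CpG-rich regions reach 41.6% and GC boxes 14.4% at 100 to 1000 reads.

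The CTCF motif showed the opposite pattern to the GC box. It was in 8 strong distal regions (1.22%, 0.530% to 2.40%), against 1917 comparison regions (7.24%, 6.93% to 7.56%), and it was in 2.53% at 0 to 9 reads, 4.96% at 31 to 99 reads and 0.147% of flanks of distal regions. The lower share held in the remaining class, with 3 of 255 regions (1.18%, 0.243% to 3.40%), against 7.37%, and at GC contents between 44% and 53%, with 0 of 164, which allows up to 2.22% by the exact interval, against 8.29%. Width moved with it. Comparison regions under 350 bp had the motif in 9.45%, those of 350 to 599 bp in 4.66% and those of 600 to 899 bp in 1.89%, and at this last width the strong distal regions had 1.85% (0.680% to 3.97%). Searched over whole regions, the motif was in 3.52% of strong distal regions, against 7.68%. When the same number of distal regions was taken by reads per base, so that narrower regions entered, the share was 4.43% (2.99% to 6.31%). Of the 8 regions with the motif, 5 were of other classes: near Chd2 with 346 reads and Oxgr1 with 176 (CpG-rich), Olfr750 with 237 (tRNA genes), Uri1 with 166 and Rassf7 with 143 (RNA starts). The highest AP-1 counts were at starts, at Impact (294 reads) and Zfp869 (268 reads), and in the narrow region of Myo3b (204 reads).

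The strong distal regions were mostly single. Within 20 kb of another lay 90 of them (13.8%, 11.2% to 16.6%), in 38 pairs, and in 4 groups of 3 or 4. They were nearest to 580 genes, of which 521 had 1 and 59 had 2 or more. The Chd2 locus had 4 regions with 346, 295, 179 and 114 reads, among them the start of 1810026B05Rik (Chaserr in RefSeq), a long noncoding RNA known in mouse to lower Chd2 expression, with 295 reads. Irx5, an Iroquois homeobox gene, had 180, 154 and 104 reads, the first of them at the start of Crnde, and Gse1 had 200, 138 and 101 reads in introns. Marcks had 317 and 250 reads on either side of its TSS. Chromosome 7 held 9.48% of strong distal regions (7.35% to 12.0%), against 5.73% of comparison regions, and the X chromosome 3.98% (2.61% to 5.77%), against 1.67%.

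The strong distal regions often had more reads than the promoter of the nearest gene. This was so in 66.5% of them (62.8% to 70.1%), against 23.7% of comparison regions, and the choice on reads fixes part of this. Promoter reads of a gene summed all regions that overlapped 1 kb on either side of its TSSs. A strong distal region whose edge reached into that stretch was included, so the choice on reads enters these values too. Promoter reads of the nearest genes had a median of 82 over the 580 genes, against 49 over the 9040 genes nearest to comparison regions. They were 0 for 19.5% of the 580 genes (16.3% to 22.9%), against 21.2% (20.4% to 22.1%).

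At the lower limit the counts ran on without a break, with 22 distal regions of 99 reads and 20 of 100. Inside it lay an exon region of Bcat2, an intronic region of 5330417H12Rik and a region 56.7 kb from Usp27x at a start of Clcn5, with 100 reads each (81.4 to 121.6). Just outside lay regions nearest to Larp1, Zfhx2 and Tns2, with 99 reads each.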

How the data were processed

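ATAC-seq was performed on wild-type mouse incisor dental mesenchymal cells and sequenced in 4 lanes, whose values were deposited under 1 name. Per the submitters' processing notes, STAR 2.6.1d and Partek were used with mm10; the labels' protocols name BWA-MEM, MACS2 and HOMER, and which of these tools made the table was not stated. The authors deposited CPM values for 121574 regions. Each value divided by the column minimum, minus 1, gave whole reads for 99.93% of regions (tolerance 0.01 reads) and 2297894 reads in all. The deposited count table, whose single row pools the lanes, was not used. Counts may be of fragments; the term read is used here. There was 1 further column of values with no sample in the labels, and it was not used.

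Python 3.11.15 with pandas 2.3.3, scipy 1.17.1 and pysam 0.24.0, and BLAST+ 2.17.0, were used. GC content, CpG and motifs were taken from 300 bp at the midpoint of each region, and flanks from 300 bp lying 2000 bp after it where no region overlapped. Mitochondrial likeness was a blastn cover over 50%. Annotations were GENCODE vM21 and RefSeq, including its tRNA and enhancer entries. The design allowed no replicate test, so no p-value is given. The alternatives covered the read and distance limits, merging, window and consensus. The procedures were tested on simulated data. The regions, gene lists and motifs were chosen with earlier results of these data known. The text names the 20 regions with the most reads, the leading 3 of each annotation kind (intron, exon, noncoding gene, intergenic) and of each motif or start class, as far as they are reported here, regions nearest to listed genes and those at the limit; tRNA, enhancer, Klrb1, Chd2, Irx5, Gse1, Marcks and Hes1 regions and other examples were chosen after their values were seen. Some items are not reported here.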

Additional observations from a re-analysis of the deposited data

How the results depend on the processing

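Of the values recomputed under each alternative, 23 planned and 7 added ones left the interval of the reported value or, for the number of regions, moved by a large factor, and 41 planned and 6 added ones did not. The number of regions was 1134 at 80 to 1000 reads and 208 at 150 to 1000 reads. The CpG-rich share was 34.6% and 57.2% at these limits, 37.3% at over 5 kb from a coding TSS and 34.6% without the regions near a noncoding TSS. The median width was 717.5 and 884.5 bp at the 2 read limits and 888 bp with adjacent regions merged. The share at a noncoding TSS was 26.4% at 150 to 1000 reads, where 26.4% were intronic and 10.1% lay within 20 kb of another. Without the regions near a noncoding TSS, 36.7% were intronic and 10.6% lay within 20 kb of another. Leaving out the mitochondrial-like and multicopy regions gave 629 regions, 41.2% CpG-rich, 19.4% at a noncoding TSS and 1.27% with a CTCF motif. The CTCF share was 3.52% over whole regions, 2.75% over 600 bp, 0.459% with a stricter and 12.8% with a looser consensus. The AP-1 share was 10.7% over whole regions (8.44% to 13.3%), against 8.53% of comparison regions, and 8.56% over 600 bp. Over whole regions it was no longer lower than in comparison regions, whose value lay inside the interval. For comparison regions the CTCF share was 1.67% at the widths of the strong distal regions, 7.68% over whole regions and 4.96% when distal regions of 31 to 99 reads took their place.

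Another 3 alternatives were chosen after seeing the data. Ranking by reads per base gave a median width of 516.5 bp, 17.3% at a noncoding TSS and 4.43% with a CTCF motif. With the remaining class alone, the width was 727 bp and the AP-1 share 5.88%. At the GC content of the middle of the comparison regions, 9.15% lay at a noncoding TSS and 0% had a CTCF motif. The causes of these shifts were not tested. No paired analysis was possible because the 4 lanes carry 1 name and 1 column of values, and leaving out a lane could not be run for the same reason. Read counts near 100 have wide intervals, so membership near the limit rests on counting error.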
